A study of Homo sapiens with 4 samples.

Results

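Integrins are the transmembrane receptors by which cells hold on to the extracellular matrix, and 10 genes for their subunits were followed here in H1299 cells, a human lung carcinoma line, with and without ginseng nanoparticles. They were chosen by symbol: the alpha subunit genes ITGA2, ITGA3, ITGA5, ITGA6 and ITGAV and the beta subunit genes ITGB1, ITGB3, ITGB4, ITGB5 and ITGB8, 10 of the 61541 gene rows in each count file. Polyadenylated RNA was sequenced in 4 libraries. In 2 of them the cells had received phosphate-buffered saline (PBS), and in the other 2 a nanoparticle preparation made from ginseng. The titles of the nanoparticle libraries also hold the word control, and the treatment label was followed. The labels name no genetic change, and neither the dose, the time of exposure nor the part of the plant. They do not say whether replicates were separate cultures, so the p-values reflect how these 4 libraries spread, and that spread may be technical. The sequencing addressed transcripts related to cancer cell migration.

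Between 22252686 and 24979081 reads per library were counted on genes. The libraries had the profile of a mesenchymal-type carcinoma line, though these markers do not tell H1299 from other such lines. The filament gene VIM was at 2354.5 CPM (counts scaled by library size) in PBS and 2209.5 with nanoparticles. The epithelial keratin gene KRT18 was at 1025.8 and 921 CPM, and the epithelial cadherin gene CDH1 had between 1 and 8 counts. Of the lung markers SFTPC had no count in any library, and NAPSA had at most 9. The summed level of 6 leukocyte markers was at most 1 CPM, that of 5 endothelial markers at most 1.04, that of 6 fibroblast markers at most 0.984, and that of 5 platelet markers at most 1.79. The 5 keratinocyte markers came to between 15.6 and 19.5 CPM, nearly all from KRT10. PTPRC, KRT5, KRT14, GP9 and PF4 had no count in any library. As these are bulk RNA values, a lower level in fewer cells and a lower level in every cell cannot be told apart.

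Each integrin is a pair of 1 alpha and 1 beta subunit, and the pair decides which matrix protein is bound. Beta1, encoded by ITGB1, joins alpha2 to bind collagen, alpha3 or alpha6 to bind laminin, and alpha5 to bind fibronectin. Alpha6 also pairs with beta4 in hemidesmosomes, the laminin anchors of epithelial cells, and alphaV pairs with beta1, beta3, beta5 or beta8 to bind vitronectin, fibronectin or the latent form of TGF-beta. The short tails inside the cell bind talin and kindlin, which switch the receptor on and link it to actin, and this link carries the pulling force of a migrating cell.

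In GENCODE 29 (genome build GRCh38), ITGA6 (ENSG00000091409) lies at chr2:172427354-172506282 and ITGAV (ENSG00000138448) at chr2:186590065-186680901, both on the plus strand. The others lie on separate chromosomes, apart from ITGA3 (chr17:50055968-50090481), ITGB3 (chr17:47253846-47311816) and ITGB4 (chr17:75721328-75757818). ITGB1 is at chr10:32900319-33005792, ITGB5 at chr3:124761948-124901418, ITGA2 at chr5:52989326-53094779, ITGA5 at chr12:54395261-54419460 and ITGB8 at chr7:20330702-20415754. ITGA6 and ITGAV had the smallest p-values of the 10 genes and fold changes of opposite sign, so the 250 bases before the 5′-most RefSeq start of each are shown (RefSeq, GRCh38.p14), the first at chr2:172427086-172427335 and the second at chr2:186589806-186590055, both on the plus strand. Capitals mark a match, on either strand, to 1 of the 4 motifs searched.
ITGA6: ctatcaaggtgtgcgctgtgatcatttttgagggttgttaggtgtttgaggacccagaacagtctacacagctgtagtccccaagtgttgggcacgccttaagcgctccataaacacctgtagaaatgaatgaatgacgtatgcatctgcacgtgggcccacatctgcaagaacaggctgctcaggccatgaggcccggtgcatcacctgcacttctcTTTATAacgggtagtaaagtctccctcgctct
ITGAV: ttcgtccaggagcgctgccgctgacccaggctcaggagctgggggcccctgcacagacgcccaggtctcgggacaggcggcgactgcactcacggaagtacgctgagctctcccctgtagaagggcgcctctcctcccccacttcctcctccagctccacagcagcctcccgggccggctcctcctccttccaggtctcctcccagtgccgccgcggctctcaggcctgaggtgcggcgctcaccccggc
The motifs were the GC box GGGCGG, the TATA box TATAAA, the AP-1 site TGANTCA and the core of the antioxidant response element, TGACNNNGC. The ITGA6 window, of 50.8% GC, held 1 TATAAA on the minus strand, a motif that 10.7% of all 35116 windows of this length hold on either strand. The ITGAV window, of 70.8% GC, held none of the 4. Of all windows 42.6% hold the GC box, 6.57% the AP-1 site and 10.9% the antioxidant core. The principal transcript of ITGA6 starts 219 bases downstream of the RefSeq start used here and that of ITGAV 9 bases downstream. The bases just before the principal start of ITGA6 therefore lie outside its window and were not searched. A match or its absence describes the letters of the window and not binding.

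Without nanoparticles ITGB1 and ITGA3, whose products can form a laminin-binding pair, had the highest mRNA levels of the integrin genes followed here. Levels of different genes were compared as CPM per kilobase of the principal transcript. ITGB1 had 153 and 151 CPM per kilobase in the PBS libraries (replicate 1, then replicate 2) and 153 and 155 in the nanoparticle libraries. ITGA3 followed with 147 and 151 in PBS and 149.9 and 144 with nanoparticles, a range that met that of ITGB1. ITGA6 came next, with 58.3 and 57.3 in PBS and 53.4 and 54.2 with nanoparticles, and ITGB5, the beta5 subunit of a vitronectin receptor, had 50.5, 52.2, 51.1 and 49.4 in the same order. These 4 genes lay between the 87.8 and the 96.9 percentile of per-length levels of all tested genes.

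ITGA5, ITGA2 and ITGAV formed a middle group, with means over the 4 libraries of 22.3, 20.3 and 14 CPM per kilobase. ITGB4, ITGB3 and ITGB8 were low, at 2.11, 1.95 and 0.357. Neighbours in this order did not overlap in any library except for ITGB1 with ITGA3 and ITGB4 with ITGB3. The order of ITGA5 and ITGA2 depended on the gene model: with the union of all exons as length ITGA2 had 20.2 and ITGA5 13.1. Among the 5 beta genes ITGB1 made up 73.1% of the summed per-length level in PBS and 73.8% with nanoparticles, and ITGB5 24.7% and 24.1%. Among the 5 alpha genes ITGA3 made up 56.7% and 57%, ITGA6 22% and 20.9%, and ITGAV 5.09% and 5.64%. With union lengths the share of ITGA3 was 44.1% and 44.4%.

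**Figure D1:**
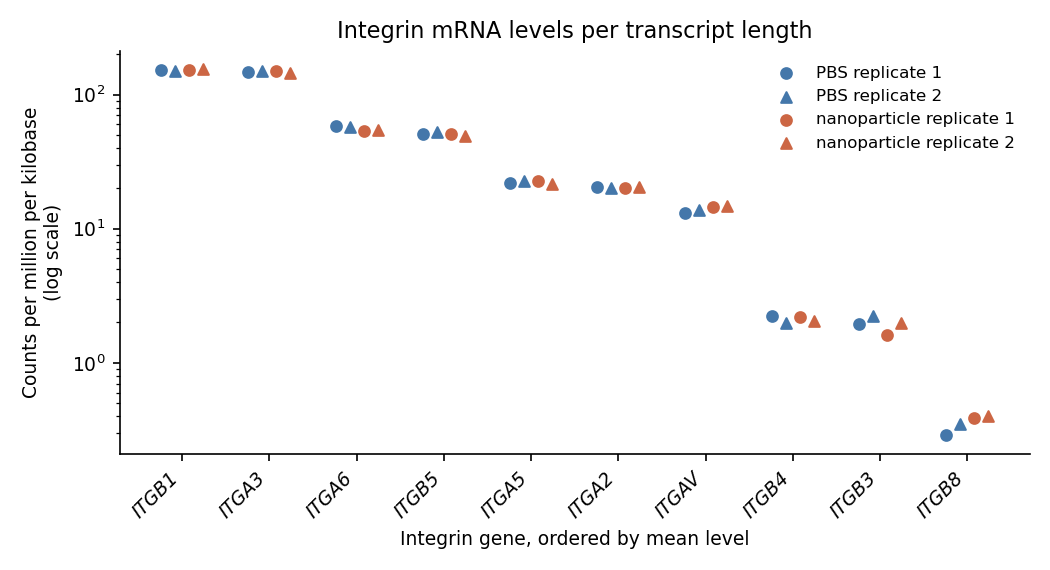
Level of each integrin mRNA in CPM per kilobase of principal transcript (log axis), 1 point per library, genes ordered by mean level. ITGB1 and ITGA3 sit near 150, and ITGB8 lies below 0.5 in all 4 libraries.

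Differences in these mRNAs between nanoparticle and PBS libraries were small for the abundant genes and least well bounded for ITGB3 and ITGB8. The intervals of those genes on the log2 scale were -0.48 to 0.022 and -0.03 to 0.67. With edgeR's quasi-likelihood test and Benjamini-Hochberg adjustment over all 15778 tested genes, none of the 10 reached an adjusted p under 0.05, whereas 2.58% of all tested genes did. DESeq2's Wald test, which gave no adjusted p for ITGB3, ITGB4 and ITGB8, called none of the others. It called 0.767% of all tested genes, counting those without an adjusted p. By limma-voom 1 of the 10 was called, ITGA6 (2.69% of all tested genes). All 10 genes passed the filter on low counts. At an unadjusted p under 0.05 there were 2, ITGA6 and ITGAV, a share of the 10 near the 16.8% of all tested genes. The groups did not overlap for 3 of the 10, lower with nanoparticles for ITGA6 and higher for ITGAV and ITGB8, while this was so for 46.9% of all tested genes (23.2% lower and 23.7% higher). Over the 10 genes the log2 fold changes had a median of 0.00017, beside 0.00056 for all tested genes, with 5 above and 5 below 0. Together the 10 genes took 0.222% and 0.223% of gene counts in PBS and 0.222% and 0.22% with nanoparticles.

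**Figure D2:**
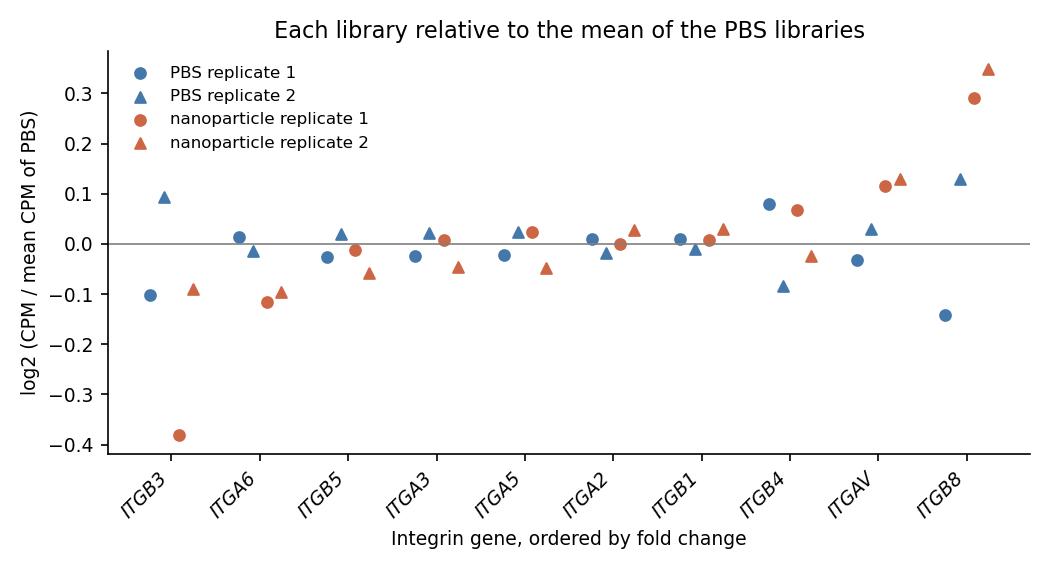
Each library's CPM as a log2 ratio to the mean CPM of the PBS libraries, for the 10 integrin genes ordered by fold change. Both nanoparticle libraries lie below both PBS libraries for ITGA6 and above them for ITGAV and ITGB8, and the groups overlap for the other 7 genes.

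Of the laminin receptors, ITGA6 had the smallest p of the 10 genes. It was at 328 and 322 CPM in the PBS libraries and at 300.1 and 304 in the nanoparticle libraries. Both nanoparticle libraries were thus below both PBS libraries, by more than the gap within either group. The group means were 325 ± 4.14 and 302 ± 3.13 CPM (SD, n = 2 per group), a difference of -6.9%. The log2 fold change was -0.10 with a standard error of 0.03 (95% interval -0.17 to -0.041; edgeR adjusted p = 0.0714), and by p the gene ranked 519 among all tested genes. The adjusted p depended on the setting. It was 0.0387 with upper-quartile scaling (2.62% of all tested genes called), 0.045 with a filter at a mean of 50 counts (4.8%), 0.0489 by limma-voom and 0.151 by DESeq2. In all 15 alternatives the fold change stayed below 0, between -0.15 and -0.092, and 7 of them passed the threshold. Without any single library it did not pass, with adjusted p between 0.281 and 0.506.

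Fold changes in this series went with transcript length, which touches the integrins because their mRNAs are long. Across 11081 expressed genes, which are not independent replicates, Spearman's rank correlation of fold change with length was 0.421. In 10 bins by length the median was lowest for the shortest genes, at -0.064, and highest for the longest, at 0.082. The integrin genes above 5 CPM fell in bins 6 to 10, where the bin medians were 0.0064 to 0.082. After each library's trend with length was removed, ITGA6 (principal transcript of 5618 bases) was at log2 -0.14 (SE 0.03, adjusted p = 0.0142, with 1.45% of all tested genes called), and with length and GC trends both removed -0.15 (adjusted p = 0.00621, 1.74% called). With the union of exons as length it was -0.12 (adjusted p = 0.0379, 1.55% called). It was the 1 gene of the 10 that passed in these 3 fits. With the trend of principal transcript length alone removed, 3 of the 10 genes were above 0 and the median was -0.044, beside -0.001 for all tested genes. The median of the 10 was -0.023 with length and GC trends removed and -0.031 with union lengths.

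ITGA3, whose product with beta1 binds laminins of the basement membrane, was at 717 and 740.2 CPM in PBS and at 733 and 706 with nanoparticles. The groups overlapped, and the log2 fold change was -0.019 (95% interval -0.073 to 0.036, adjusted p = 0.781). ITGB4, whose long tail binds plectin in hemidesmosomes, was at 13.1 and 11.7 CPM in PBS and at 13 and 12.2 with nanoparticles, with a log2 fold change of 0.019 and a wider interval of -0.17 to 0.21 (adjusted p = 0.948). The low count of ITGB4, between 262 and 324 reads per library, sets that width.

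ITGAV encodes the alpha subunit shared by the vitronectin receptors. It was at 92 and 96.1 CPM in PBS and at 102 and 103 with nanoparticles, so that both nanoparticle libraries were above both PBS libraries. The means were 94.1 ± 2.89 and 102 ± 1.1 CPM (SD, n = 2 per group), a difference of 8.78%, with a log2 fold change of 0.12 (SE 0.038, 95% interval 0.041 to 0.20; edgeR adjusted p = 0.101). It passed in none of the 15 alternatives (lowest adjusted p 0.0693, with the filter at a mean of 50 counts). With the length trend removed the log2 fold change was 0.062 (adjusted p = 0.507), and with length and GC trends removed 0.039 (adjusted p = 0.706). Its principal transcript has 7030 bases.

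The beta partners of alphaV did not share one direction. ITGB8, which with alphaV binds and activates latent TGF-beta and whose tail differs from those of the talin-binding beta subunits, had 56 and 68 counts in PBS and 85 and 88 with nanoparticles. In CPM this was 2.52 and 3.04 against 3.4 and 3.54, with no overlap. The log2 fold change of 0.32 (SE 0.17, 95% interval -0.03 to 0.67, adjusted p = 0.351) was the highest of the 10 and was not distinguishable from 0 at these counts. Without each library in turn it lay between 0.19 and 0.46.

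ITGB3, the beta3 subunit of a receptor for vitronectin and fibrinogen, had 174 and 200 counts in PBS and 161 and 196 with nanoparticles. Its CPM values were 7.82 and 8.95 against 6.44 and 7.88, which overlapped, and nanoparticle replicate 1 was the lowest. The log2 fold change was -0.23 (SE 0.12, 95% interval -0.48 to 0.022, adjusted p = 0.352). Without nanoparticle replicate 1 it was -0.09 and without nanoparticle replicate 2 -0.38, so single libraries moved it by more than its standard error. In GENCODE 29 a read-through gene, AC068234.1, overlaps ITGB3 on the same strand, and the largest overlap by 1 of its exons is 430 bases. AC068234.1 had 0 counts in every library. Whether the overlap lowered the count of ITGB3, and so its level and ratios, was not tested. ITGB5 was at 221 and 228 CPM in PBS and at 223 and 216 with nanoparticles, with a log2 fold change of -0.032 (95% interval -0.10 to 0.037, adjusted p = 0.688).

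ITGB1, whose product is the partner of the most alpha subunits, was at 579 and 571 CPM in PBS and at 578 and 587 with nanoparticles, a log2 fold change of 0.018 (SE 0.026, 95% interval -0.035 to 0.071, adjusted p = 0.782). A processed pseudogene, ITGB1P1, took 62 to 91 counts per library, against 12767 to 14592 for ITGB1. ITGA5, the alpha subunit of the main fibronectin receptor, was at 97.9 and 101 CPM in PBS and at 101 and 96.1 with nanoparticles (log2 -0.014, 95% interval -0.095 to 0.068, adjusted p = 0.905). ITGA2, the alpha subunit of a collagen receptor, was at 160.1 and 157 CPM in PBS and at 159 and 162 with nanoparticles (log2 0.014, 95% interval -0.056 to 0.085, adjusted p = 0.885). For ITGB1, ITGA3, ITGA5, ITGA2 and ITGB5 all intervals included 0, and the bound farthest from 0 was the -0.10 of ITGB5.

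**Figure D3:**
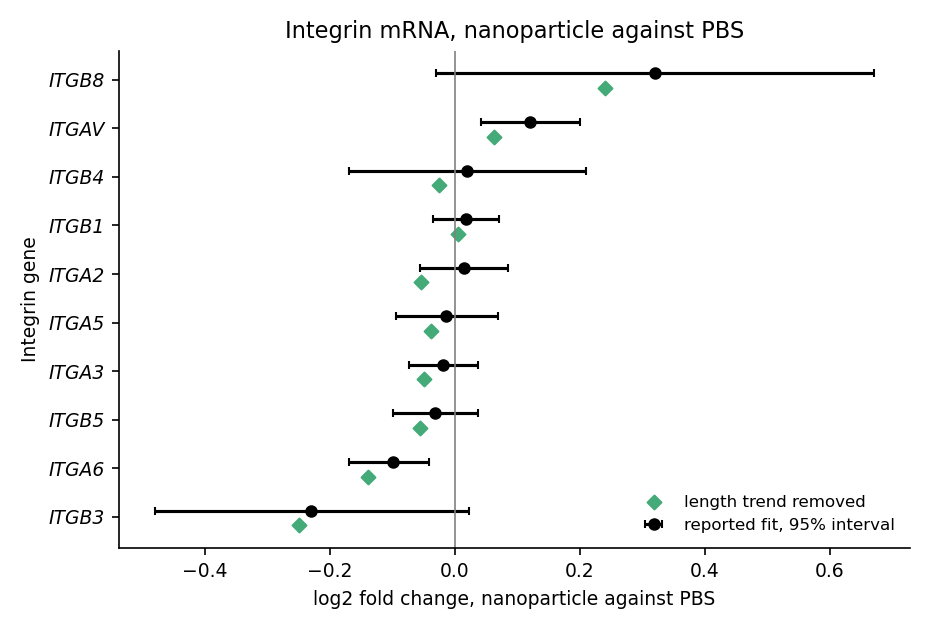
Log2 fold change of each integrin mRNA, nanoparticle against PBS, with its 95% interval in the reported fit (black) and its value after each library's trend with length was removed (green). The intervals of ITGA6 and ITGAV do not reach 0 before adjustment for multiple tests, and those of ITGB3, ITGB4 and ITGB8, the genes with the fewest counts, are the widest.

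As each alpha subunit needs a beta subunit, the ratios of per-length levels were also taken, as a description. ITGA6 stood to ITGB1 at 0.381 and 0.379 in the PBS libraries and at 0.35 in each nanoparticle library. ITGAV stood to ITGB1 at 0.0856 and 0.0906 in PBS and at 0.0945 and 0.0946 with nanoparticles. ITGAV stood to ITGB5 at 0.259 and 0.262 in PBS and at 0.283 and 0.297 with nanoparticles, and to ITGB3 at 6.69 and 6.1 and at 8.96 and 7.44. Its ratio to ITGB8 went the other way, with 45.5 and 39.3 in PBS and 37.2 and 36.3 with nanoparticles. ITGB8 had only 56 to 88 counts per library. The ratio of ITGA6 to ITGB4 was 26.3 and 28.9 in PBS and 24.4 and 26.3 with nanoparticles. For the other alpha genes the ratio to ITGB1 overlapped. It was 0.959 and 1 in PBS and 0.981 and 0.932 with nanoparticles for ITGA3. For ITGA2 it was 0.133 and 0.132, then 0.132 and 0.133, and for ITGA5 0.144 and 0.15, then 0.148 and 0.14. The trend with length was left in these ratios, and no ratios of other gene pairs were taken for comparison. None of these mRNA ratios measures the pairs at the cell surface.

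Of the 16 other integrin subunit genes, 8 had enough counts to be tested and none passed in edgeR, in DESeq2 or in limma-voom, nor was any at an unadjusted p under 0.05 in these 3 tests. DESeq2 gave an adjusted p for only ITGA4 and ITGAE of the 8. ITGA4, the alpha subunit of a receptor for fibronectin and VCAM1, was the most abundant, at 88.4 and 86.6 CPM in PBS and 85.4 and 84.2 with nanoparticles (log2 -0.045). Its per-length level of 20.9 in PBS was close to that of ITGA2. ITGAE, the alpha subunit of a receptor for E-cadherin, was at 27.6, 26.8, 28.4 and 28.9 CPM in the same library order (log2 0.076), ITGA1 at 15.9, 15.7, 16.4 and 16.7 (log2 0.068) and ITGA10 at 9.75, 10.9, 9.04 and 10.1 (log2 -0.11). The log2 fold changes of ITGAM, ITGA7, ITGA2B and ITGB2, genes best known from leukocytes, muscle and platelets, were -0.12, -0.26, -0.22 and -0.63, the last from 10 to 19 counts per library. ITGA9, ITGA11, ITGAX, ITGB6 and ITGB7 had at most 10 counts in any library, and ITGA8, ITGAD and ITGAL had none. The beta6 gene ITGB6, which with alphaV also activates TGF-beta, was among those at 7 to 10 counts.

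Among 24 tested matrix ligands of integrins, 2 genes were higher and 1 was lower (1.75% and 0.83% of all tested genes). TNC, which encodes tenascin-C, an anti-adhesive matrix protein, rose from 23.9 and 27.5 CPM in PBS to 32.4 and 34 with nanoparticles (log2 0.37, SE 0.068, edgeR adjusted p = 0.00473). FBN1, the microfibril protein fibrillin-1, rose from 28.1 and 27.2 to 32.9 and 34.5 CPM (log2 0.28, SE 0.06, adjusted p = 0.0139). CCN2, a matricellular protein that binds alphaV integrins, fell from 189 and 202 to 173 and 179 CPM (log2 -0.15, SE 0.037, adjusted p = 0.0296). Its relative CCN1 was at log2 -0.11 (adjusted p = 0.0825). With the length trend removed TNC passed (log2 0.30, adjusted p = 0.0217), whereas FBN1 (log2 0.18, adjusted p = 0.162) and CCN2 (log2 -0.13, adjusted p = 0.0714) did not. By DESeq2 TNC passed (adjusted p = 0.0321), and FBN1 (0.121) and CCN2 (0.0761) did not. The median of the 24 was 0.0049, and 10 had an unadjusted p under 0.05 in edgeR (16.8% of all tested genes did). Such counts are no test, as the lists were chosen with earlier results of these data known.

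Of 15 tested genes for proteins that act on the integrin tails, 5 had an unadjusted p under 0.05 (16.8% of all tested genes did), none passed in edgeR, DESeq2 or limma-voom, and the median log2 fold change was 0.011. FERMT1, which encodes kindlin-1, had a log2 value of -0.15 (adjusted p = 0.0757), KRIT1 0.25 (0.163) and TLN2, a talin, 0.13 (0.248). With the length trend removed FERMT1 passed, at log2 -0.18 (adjusted p = 0.0327), from 71.8 and 70.6 CPM in PBS to 62.7 and 65.6 with nanoparticles. Of 23 tested adhesion complex genes 4 had an unadjusted p under 0.05, a share near the 16.8% of all tested genes, and none passed in edgeR or DESeq2 (median -0.023). The paxillin gene PXN, at log2 -0.092 (adjusted p = 0.0715), passed by limma-voom (0.0447) and with the length trend removed (log2 -0.11, adjusted p = 0.0445). TGFB1I1, a relative of paxillin, had -0.29 (adjusted p = 0.0655), the adaptor gene BCAR1 -0.078 (0.225) and LIMS1 0.091 (0.237). In these lists DESeq2 gave no adjusted p for KRIT1, FERMT3, TGFB1I1, LIMS2, PTK2B and ARHGEF6, so it could not call them.

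In the membrane, 2 of 19 tested lateral partners of integrins passed, both lower (0.83% of all tested genes). The list median was -0.053, with 16 of 19 below 0, beside a median of 0.00056 for all tested genes. With the length trend removed the list median was -0.042, beside -0.001 for all tested genes. The principal transcripts of SDC4, CD9, PLAUR and TSPAN4 have 2613, 1566, 1548 and 1462 bases, and short genes tended to lower fold changes in this series. At an unadjusted p under 0.05 in edgeR there were 8, beside 16.8% of all tested genes. SDC4, which encodes syndecan-4, a co-receptor for fibronectin in focal adhesions, fell from 226 and 215 CPM to 194 in each nanoparticle library (log2 -0.19, SE 0.034, edgeR adjusted p = 0.00421). It passed with the length trend removed as well (log2 -0.18, adjusted p = 0.00862). The tetraspanin gene CD9 fell from 188 and 194 to 175 and 172 CPM (log2 -0.14, SE 0.034, adjusted p = 0.0296), and had -0.099 with the length trend removed (adjusted p = 0.171). By DESeq2 SDC4 passed (adjusted p = 0.00344) and CD9 did not (0.0906). PLAUR, the urokinase receptor, had -0.11 (adjusted p = 0.0595) and TSPAN4, a tetraspanin of migrasomes, -0.14 (0.0714).

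Of 7 tested hemidesmosome partners of alpha6 beta4, 2 passed, both higher (1.75% of all tested genes, list median 0.041). An unadjusted p under 0.05 in edgeR was seen for 4, beside 16.8% of all tested genes. DST, which encodes dystonin, rose from 146 and 152 CPM to 177 and 192 (log2 0.30, SE 0.039, edgeR adjusted p = 0.00013). PLEC, which encodes plectin, rose from 809 and 830 to 886 and 898 CPM (log2 0.12, SE 0.024, adjusted p = 0.00689). Both have very long principal transcripts, of 17756 and 15249 bases. With the length trend removed DST was at log2 0.16 and passed (adjusted p = 0.0201), while PLEC was at -0.0077 (adjusted p = 0.936). The tetraspanin gene CD151, which binds laminin-binding integrins, had -0.081 (adjusted p = 0.184).

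In the traffic of integrins 1 of 21 tested genes passed, a share near the 2.58% of all tested genes (list median -0.016). An unadjusted p under 0.05 in edgeR was seen for 3 of the 21, beside 16.8% of all tested genes. CLTC, the clathrin heavy chain, rose from 738 and 741 CPM to 797 and 799 (log2 0.11, SE 0.023, edgeR adjusted p = 0.0139). With the length trend removed it was at 0.042 (adjusted p = 0.464). EHD1, a recycling protein, had -0.092 (adjusted p = 0.174), IQSEC1, an activator of ARF6, 0.13 (0.274) and CAV1, caveolin-1, -0.061 (0.308). Of the genes around TGF-beta activation by alphaV integrins, only some are reported here. The ligand gene TGFB1 had -0.12 (adjusted p = 0.0906), and the latent TGF-beta binding protein genes LTBP3 and LTBP1 had -0.079 (0.295) and 0.13 (0.341).

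None of the partner genes named above as rising or falling passed without PBS replicate 1 or without PBS replicate 2, where no gene of the whole table passed (lowest adjusted p = 0.212 and 0.139, with 1562 and 1672 genes at an unadjusted p under 0.05). Without nanoparticle replicate 1 TNC, FBN1, SDC4 and DST passed, and without nanoparticle replicate 2 DST. Each kept its direction in these fits.

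**Figure D4:**
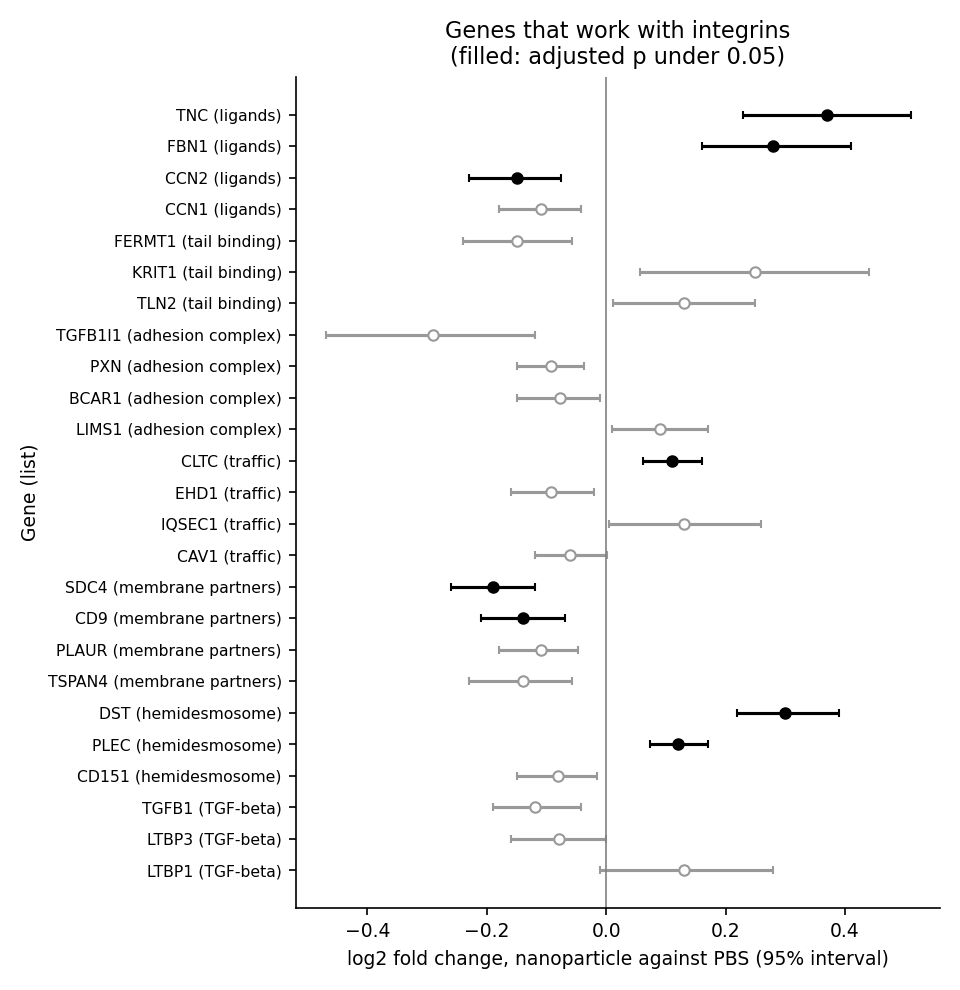
Log2 fold change with its 95% interval, nanoparticle against PBS, of the partner genes named in the text, by list. Filled points passed an adjusted p of 0.05; TNC, FBN1, CLTC, DST and PLEC lie above 0 and CCN2, SDC4 and CD9 below.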

How the data were processed

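Each deposited file gives 1 library's raw read count for every Ensembl gene, not normalized by the authors. Per the labels' protocols the libraries were stranded TruSeq mRNA libraries. Per the submitters' processing notes reads were handled with tools that include STAR 2.7.6a and HTSeq 2.0.2, on GRCh38. The sources used here do not give the annotation release or the strand setting. Reads given to no gene (13.662% to 14.84% per library) were left out. Symbols came from a gene name table for 61369 rows and from GENCODE 29 for 159.

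Genes were filtered with filterByExpr, scaled by TMM and tested with edgeR 4.0.16 (glmQLFit and glmQLFTest in R 4.3.3). Tests were two-sided, with Benjamini-Hochberg adjustment over 15778 genes and a threshold of 0.05; the common biological coefficient of variation was 2.46%. Standard errors came from the coefficient and its F statistic, and 95% intervals used the degrees of freedom of the fit. Per-length levels used the principal transcript of GENCODE 29. Length and GC trends were removed with robust splines (4 degrees of freedom, MASS 7.3.60.0.1) fitted per library over genes above 5 CPM. Other alternatives used DESeq2 1.42.0, limma 3.58.1 (voom), other scalings and filters, the replicate number as a block, and each library left out. The members and lists were chosen with earlier results of these data known. All 10 integrin genes were named, all other integrin subunits, and up to 4 genes of each list with the smallest p, apart from some genes that are not reported here. The test was tried on simulated counts for this comparison, with 15778 genes tested and changes placed in genes averaging 100 counts or more. It found 72% of the 1.2-fold changes, 98% of those of 1.5-fold and 100% of the larger ones, and 4.64% of its calls were false. Every simulated gene had the same dispersion and no trend with length was put in, so these shares need not hold for these data. The smallest change placed, 1.2-fold, was larger than the measured differences of ITGA6 and ITGAV. ITGB8, with 56 to 88 counts, lay below the genes that were changed. Exact permutation of 2 against 2 libraries cannot give a two-sided p below 0.33, so none was used. The set of RefSeq promoter windows at hand held 7 of the 10 genes and lacked ITGA3, ITGB3 and ITGB4.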

Additional observations from a re-analysis of the deposited data

How the results depend on the processing

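Among all tested genes 407 passed in the reported fit, 276 higher and 131 lower. The number was 0 without a low-count filter (lowest adjusted p = 0.544, with 2297 of 27535 genes at an unadjusted p under 0.05), 121 by DESeq2, 228 with the length trend removed, 245 with union lengths in that removal (chosen after seeing the data), and 0 to 200 when 1 library was left out. With upper-quartile scaling the split was 223 higher and 190 lower. The replicate number as a block gave 759 calls; same-numbered libraries deviated together by a correlation of 0.0358 only, so the labels' numbers were not read as pairs, and no library was crossed. With the block ITGA6 had an adjusted p of 0.0421 and the other 9 integrin genes did not pass.

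ITGA6, ITGAV, ITGB3, ITGB5 and ITGB8 kept the sign of their fold change in all 15 alternatives. The sign turned for ITGA2 (log2 -0.055 with length, -0.066 with length and GC and -0.019 with union length removed), ITGB1 (-0.017 with length and GC removed), ITGB4 (-0.026 with length and -0.0034 with union length removed), ITGA1 (-0.029, -0.046 and -0.023 with length, length and GC, and union length removed) and PLEC (-0.0077 with length removed). Without single libraries the range was -0.046 to 0.0086 for ITGA3, -0.048 to 0.02 for ITGA5, -0.061 to 0.10 for ITGB4, -0.32 to 0.059 for ITGAM and -0.55 to 0.047 for ITGA2B. None of these turned values passed the test, and the cause was not tested. The counts of ITGB8, ITGB3 and ITGB4 limit what can be seen: their 95% intervals reach 0.67, -0.48 and 0.21 on the log2 scale. A fit without 1 library takes the lone library of that group to vary like the other group.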
